A study of Arabidopsis thaliana with 24 samples.

Results

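Heat shock factors are transcription factors that bind heat shock elements in promoters, and Arabidopsis thaliana has a large family of them. Of the 32833 genes with counts, 8 genes of class A were followed here, chosen by gene identifier: the HSFA1 genes HSFA1A (AT4G17750), HSFA1B (AT5G16820), HSFA1D (AT1G32330) and HSFA1E (AT3G02990), with HSFA4A (AT4G18880), HSFA4C (AT5G45710), HSFA5 (AT4G13980) and HSFA8 (AT1G67970). The tables named HSFA1A as HSF1, HSFA1B as HSF3 and HSFA4C as RHA1. No measured value was part of the rule, and all 8 genes passed the filter on low counts in each fit. On TAIR10.1 with RefSeq's annotation the HSFA1 genes lie at chr4:9869818-9871646 (HSFA1A, minus strand), chr5:5530195-5532889 (HSFA1B, plus strand), chr1:11656964-11660471 (HSFA1D, minus strand) and chr3:673428-676428 (HSFA1E, plus strand). The others lie at chr4:10347479-10349902 (HSFA4A, minus strand), chr5:18540665-18542864 (HSFA4C, plus strand), chr4:8076903-8079408 (HSFA5, minus strand) and chr1:25484449-25486512 (HSFA8, minus strand). Windows of 50 bases along their exons were all unique in the genome for 7 genes, and 99.12% were for HSFA1A, so reads are rarely shared with a paralog.

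Messenger RNA levels were measured by RNA sequencing of whole seedlings, 9 days old, grown on 1/2 MS, a mineral medium, with sucrose. The groups, with 3 libraries each, were exa1-1 and wild type (Col-0) after 60 min in 200 mM NaCl, each set against the same genotype on 1/2 MS, and exa1-1 and wild type after 60 min at 39 °C, each set against the same genotype at 23 °C. The line exa1-1 carries a mutation in EXA1 (AT5G42950), which encodes a GYF-domain protein, and no other allele or agent was named in the labels. The series describes the replicates as biological and independent.

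The HSFA1 proteins are regarded as the master regulators of the heat response: in unstressed cells they are held inactive by chaperones of the HSP70 and HSP90 families, and on heat they enter the nucleus and switch on genes such as HSFA2, DREB2A and those of small heat shock proteins. Much of this control acts on the protein, so transcript levels show only how much message is present. HSFA4A is tied to salt and oxidative stress and is a substrate of the kinases MPK3 and MPK6, HSFA5 can bind HSFA4 proteins and dampen their activity, HSFA4C was found in a screen for altered root growth responses, and HSFA8 has been described as a redox-responsive factor.

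The promoter sequences of HSFA1E, HSFA4A, HSFA1D and HSFA8 are shown because the results below turn on these genes. HSFA1E rose under both stresses, and HSFA4A rose with salt. HSFA1D, HSFA4A and HSFA8 differed between the genotypes at 39 °C. HSFA1A also differed there, by a smaller log2 change (0.42, exa1-1 over wild type). The HSFA1A window held no match to the motifs searched and is not shown. Each sequence shown is the 250 bases before the annotated gene start on the gene's strand, 5′ to 3′, read from the reference genome TAIR10.1 with RefSeq's gene starts. The HSFA1E window lies at chr3:673178-673427 (plus strand), the HSFA4A window at chr4:10349903-10350152 (minus strand), the HSFA1D window at chr1:11660472-11660721 (minus strand) and the HSFA8 window at chr1:25486513-25486762 (minus strand). Capitals mark matches to the motifs searched.
HSFA1E: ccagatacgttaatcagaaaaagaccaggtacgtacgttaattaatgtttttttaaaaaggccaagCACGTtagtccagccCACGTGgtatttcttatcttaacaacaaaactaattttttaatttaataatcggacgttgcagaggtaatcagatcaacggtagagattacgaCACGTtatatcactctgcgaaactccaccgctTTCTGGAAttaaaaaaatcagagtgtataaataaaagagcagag
HSFA4A: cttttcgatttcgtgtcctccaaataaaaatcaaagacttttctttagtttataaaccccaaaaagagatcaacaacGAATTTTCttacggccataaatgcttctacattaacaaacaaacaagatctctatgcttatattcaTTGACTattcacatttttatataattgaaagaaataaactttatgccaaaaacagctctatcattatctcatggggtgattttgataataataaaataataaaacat
HSFA1D: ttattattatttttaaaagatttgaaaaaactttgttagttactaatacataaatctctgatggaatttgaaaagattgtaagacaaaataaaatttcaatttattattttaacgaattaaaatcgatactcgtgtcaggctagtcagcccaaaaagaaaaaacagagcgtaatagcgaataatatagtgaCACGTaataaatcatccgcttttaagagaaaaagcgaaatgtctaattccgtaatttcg
HSFA8: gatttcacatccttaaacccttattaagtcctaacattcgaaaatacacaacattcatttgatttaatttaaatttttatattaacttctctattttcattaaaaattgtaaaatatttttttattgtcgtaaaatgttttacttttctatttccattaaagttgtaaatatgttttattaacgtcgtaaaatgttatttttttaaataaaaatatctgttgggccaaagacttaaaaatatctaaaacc
Motifs searched on either strand were a heat shock element (GAA, any 2 bases, TTC, or TTC, any 2 bases, GAA), the abscisic acid response core ACGTG and the W-box core TTGACC or TTGACT, the site of WRKY factors.

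A heat shock element was present in the windows of HSFA1E (TTCTGGAA, 44 to 37 bases before the start) and HSFA4A (GAATTTTC, 173 to 166 bases before it) and in none of the other 6 windows, beside 16.1% of 27443 annotated promoter windows of that length. HSFA1E held 4 matches to ACGTG, of which 2 overlapped within CACGTG, HSFA1B held 3 and HSFA1D held 1, beside 22.9% of all windows with at least 1 match. HSFA4A held 1 W-box core, beside 28.4% of all windows. The windows of HSFA1A and HSFA1B overlapped a neighbouring annotated gene. A match describes letters in the window and not a bound site.

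Library totals ranged from 17658196 to 20992263 counts, and the 8 genes had 34 to 982 counts per library, so the HSFA8 values at 39 °C in exa1-1 (62, 34 and 53 counts) carry the widest counting error. EXA1 itself stood at 2.27 to 9.81 FPKM (fragments scaled by gene length and library total) over the exa1-1 libraries, against 21.4 to 39.2 FPKM over the wild-type libraries. Genes of shoot (4 of 4) and root (4 of 4) were detected in the whole-seedling samples. CRU3, a seed storage gene that a seedling should lack, had 0, 462 and 271 counts in exa1-1 at 39 °C. In wild type at 39 °C it had 0 in each library, and in the other groups 0 to 168 counts per library. At2S3, also a seed storage gene, had 0 to 17 counts. The source of these reads was not tested. The summed FPKM of 4 root genes was lower in stressed groups, at 674 to 704 in exa1-1 in NaCl against 1337 to 1491 on 1/2 MS, 537 to 560 in wild type in NaCl against 1315 to 1505 on 1/2 MS, 144 to 145 in exa1-1 at 39 °C against 1041 to 1476 at 23 °C, and 118 to 126 in wild type at 39 °C against 844 to 888 at 23 °C. That sum is carried by PYK10, a root beta-glucosidase gene; by the test all 4 root genes fell in NaCl in both genotypes and at 39 °C in exa1-1, and 3 fell at 39 °C in wild type, where EXPA7, an expansin gene of root hairs, had a log2 change of -0.14 (adjusted p = 0.576). None of the 4 was at 0, but COBL9, a root hair gene, had only 3 to 14 counts per library at 39 °C. The summed FPKM of 4 shoot genes was higher in stressed groups, at 7936 to 8333 in exa1-1 in NaCl against 6310 to 6738 on 1/2 MS, 12100.0 to 13880.0 in wild type in NaCl against 7860.0 to 8864 on 1/2 MS, 14470.0 to 14800.0 in exa1-1 at 39 °C against 12080.0 to 13150.0 at 23 °C, and 16710.0 to 18690.0 in wild type at 39 °C against 15310.0 to 15730.0 at 23 °C. In each of the 4 conditions the shoot sums of exa1-1 thus lay below those of wild type, but these sums are carried by RBCS1A and CAB1. By the test, 3 of 4 shoot genes on 1/2 MS, 4 in NaCl, 1 at 23 °C and 1 at 39 °C were lower in exa1-1, and 0 higher. Of the 4 root genes, 2 on 1/2 MS, 1 in NaCl, 4 at 23 °C and 3 at 39 °C were higher in exa1-1, and 0 lower. The part of the shoot and root genes in the results below was not tested. In whole seedlings fewer cells of a type and less RNA per cell cannot be told apart.

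Scaling matters for the heat comparisons. Scaling by total counts instead of TMM (a trimmed mean of gene ratios) shifted the median log2 change of all genes by -0.995 in exa1-1 and by -0.88 in wild type; with salt the shifts were -0.13 in exa1-1 and -0.12 in wild type. Log2 changes are given with TMM, and the total-count value is given beside each member's response to 39 °C. FPKM, used for levels because it is per length, is scaled by total counts.

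**Figure D1:**
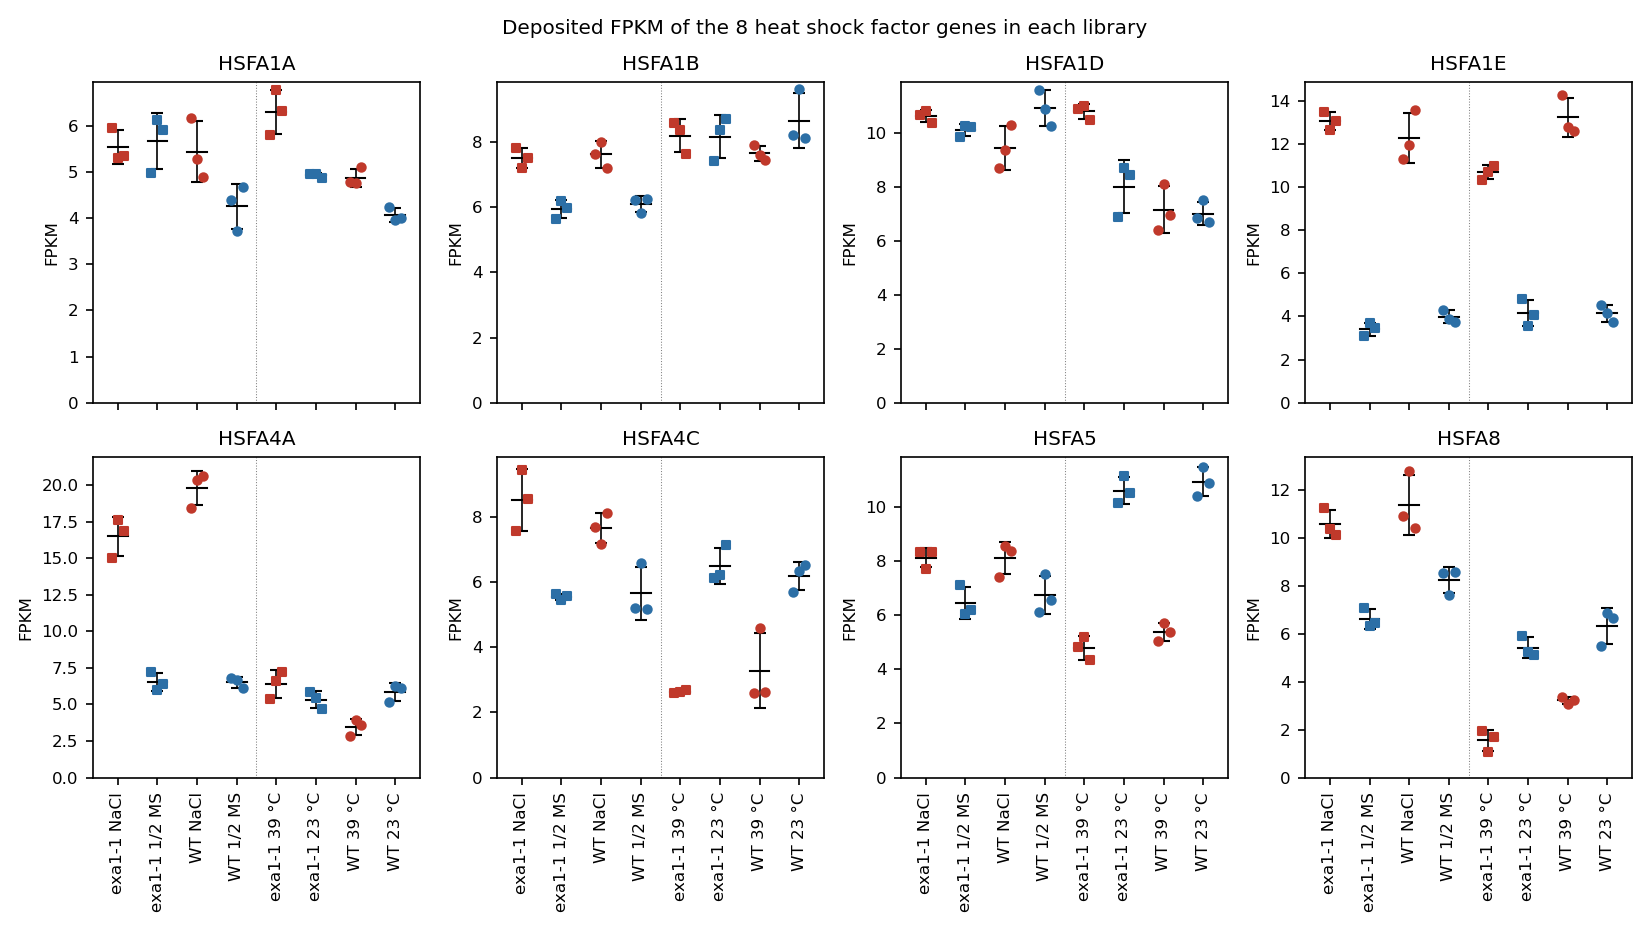
Deposited FPKM (y axis) of the 8 genes in each of the 24 libraries, by group (x axis). Squares are exa1-1, circles wild type, red the stressed groups and blue their controls; lines and bars give mean and SD of 3 libraries. HSFA4A is highest in NaCl (15.0 to 20.6 FPKM), HSFA1E is higher in every stressed library (10.3 to 14.3 FPKM) than in every control library (3.08 to 4.79 FPKM), and HSFA8 is lowest in exa1-1 at 39 °C (1.05 to 1.93 FPKM).

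On 1/2 MS, HSFA1D had the highest level of the 8 genes and HSFA1E the lowest in both genotypes. HSFA1D averaged 10.1 ± 0.215 FPKM in exa1-1 and 10.9 ± 0.675 FPKM in wild type (SD, n = 3 each). HSFA1E averaged 3.40 ± 0.302 FPKM in exa1-1 and 3.98 ± 0.302 FPKM in wild type. In NaCl HSFA4A led, at 16.5 ± 1.35 FPKM in exa1-1 and 19.8 ± 1.18 FPKM in wild type, followed by HSFA1E in both. At 23 °C HSFA5 led, at 10.6 ± 0.505 FPKM in exa1-1 and 10.9 ± 0.534 FPKM in wild type. At 39 °C the order differed between genotypes: HSFA1D (10.8 ± 0.272 FPKM) and HSFA1E (10.7 ± 0.326 FPKM) led in exa1-1 with overlapping libraries, whereas HSFA1E alone led in wild type (13.2 ± 0.927 FPKM), above HSFA1B (7.66 ± 0.234 FPKM). As a ratio of highest to lowest library, HSFA8 varied most among the 8 genes over the 24 libraries (12.2-fold, 1.05 to 12.8 FPKM) and HSFA1B least (1.71-fold, 5.64 to 9.63 FPKM).

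Salt raised most of these genes in both genotypes, with HSFA1E and HSFA4A far ahead of the others. By edgeR's quasi-likelihood test with Benjamini-Hochberg adjustment over all genes, 7 of 8 rose in exa1-1 and 7 of 8 rose in wild type, and none fell. In exa1-1, 71.9% of all genes tested passed the test in either direction and 35.7% were higher; in wild type the figures were 70.9% and 35.3%. The median log2 change of the 8 genes was 0.605 in exa1-1 and 0.52 in wild type, beside -0.01 over all genes tested in each.

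HSFA1E, one of the HSFA1 master regulators, had 13.5, 12.6 and 13.1 FPKM in exa1-1 in NaCl, against 3.08, 3.68 and 3.44 FPKM on 1/2 MS. Wild type had 11.3, 11.9 and 13.6 FPKM in NaCl, against 4.31, 3.902 and 3.72 FPKM on 1/2 MS. Every NaCl library lay far above every 1/2 MS library. The log2 change was 2.06 ± 0.08 (SE) in exa1-1 (adjusted p = 1.97e-14) and 1.74 ± 0.09 in wild type (adjusted p = 2.72e-13).

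HSFA4A had 15.0, 17.63 and 16.8 FPKM in exa1-1 in NaCl, against 7.19, 5.97 and 6.37 FPKM on 1/2 MS. In wild type it had 18.5, 20.4 and 20.6 FPKM in NaCl, against 6.80, 6.64 and 6.11 FPKM on 1/2 MS. The stressed and control libraries did not overlap in either genotype, and in NaCl the exa1-1 libraries all lay below those of wild type. The log2 change was 1.47 ± 0.10 in exa1-1 (adjusted p = 2.72e-13) and 1.72 ± 0.06 in wild type (adjusted p = 1.57e-14).

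The other members moved less. HSFA8 rose by a log2 change of 0.81 ± 0.07 in exa1-1 and 0.58 ± 0.10 in wild type, HSFA4C by 0.75 ± 0.09 and 0.56 ± 0.13 in the same order, HSFA5 by 0.46 ± 0.08 and 0.39 ± 0.10, and HSFA1B by 0.46 ± 0.05 and 0.44 ± 0.06, each called in both genotypes. HSFA1A had 0.09 ± 0.11 in exa1-1 (adjusted p = 0.523), or -0.04 with total counts, and rose in wild type (0.47 ± 0.15, adjusted p = 0.0018). HSFA1D rose in exa1-1 by the test (0.20 ± 0.03, adjusted p = 0.0186). That call was lost with total counts (0.07), with limma on FPKM (adjusted p 0.389 to 0.417) and with no filter on low counts (adjusted p = 0.0537). It was also lost on leaving out any of the 3 1/2 MS libraries or replicate 1 or 2 of the NaCl libraries of exa1-1. In wild type HSFA1D had -0.09 ± 0.08, and -0.21 with total counts, where it passed as lower, as it did with limma on FPKM.

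Whether the genotypes differed in their salt response was tested as an interaction. It was called for 0 of 8 members, beside 11.2% of all genes. HSFA1A, HSFA1D, HSFA1E and HSFA4A had an unadjusted p under 0.05, and DESeq2 and limma on FPKM also called 0. The largest differences of log2 changes, exa1-1 minus wild type, were -0.39 ± 0.18 for HSFA1A (adjusted p = 0.159) and 0.32 ± 0.12 for HSFA1E (adjusted p = 0.136).

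**Figure D2:**
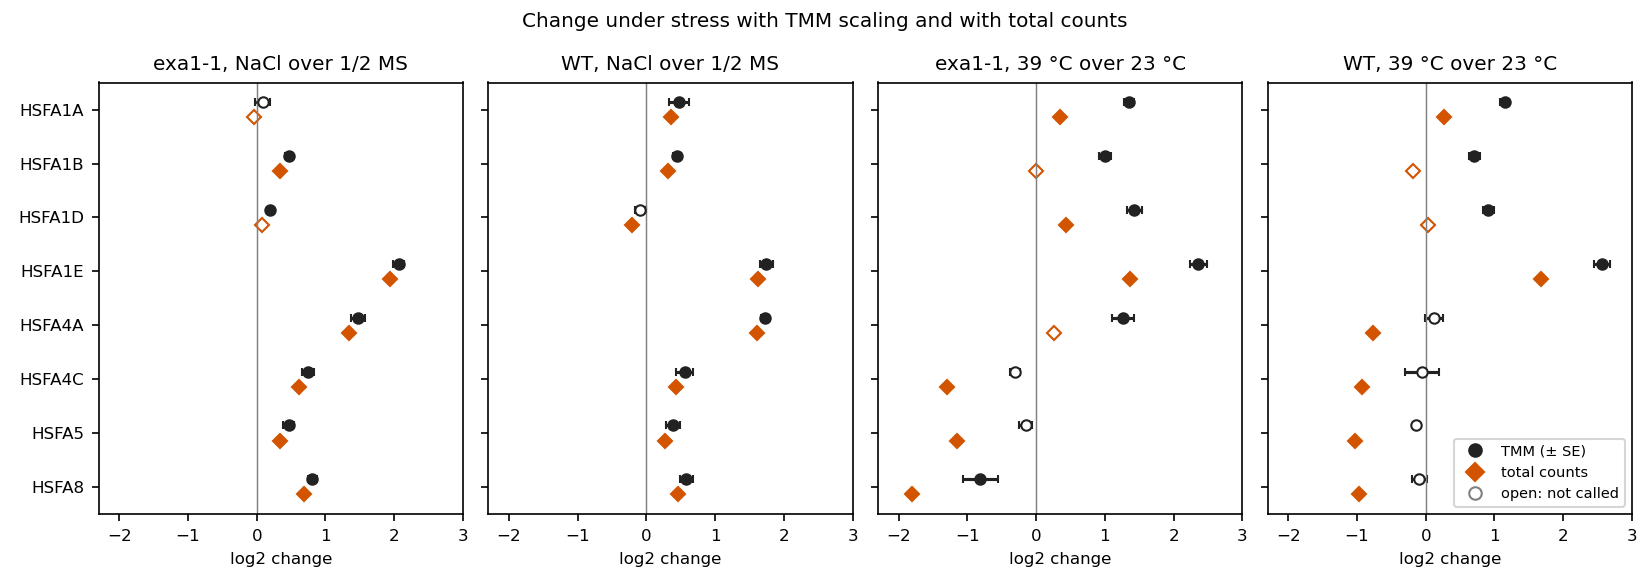
Log2 change (x axis) of the 8 genes under salt and heat in each genotype, with TMM scaling (black circles, bars are SE) and with total counts (orange diamonds); open symbols did not pass an adjusted p of 0.05. Total counts shift the median of all genes by -0.13 (exa1-1) and -0.12 (wild type) for salt and by -0.995 and -0.88 for heat, which turns HSFA1B and HSFA4A negative in heated wild type, and HSFA1E is the gene farthest to the right at 39 °C under either scaling.

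At 39 °C HSFA1E rose in both genotypes under either scaling, and the 8 genes spread widely around it. With TMM, 6 of 8 were called in exa1-1 (5 higher, HSFA8 lower), beside 80.2% of all genes called and 38.4% higher. In wild type 4 of 8 were called, all higher, beside 80.1% called and 38.4% higher. With total counts 6 of 8 were called in exa1-1 (3 higher and 3 lower), beside 89.1% of all genes, and 6 of 8 in wild type (2 higher and 4 lower), beside 87.0%. The count of members called in either direction was thus no larger, as a share, than that of all genes. The median log2 change of the 8 genes was 1.13 in exa1-1 and 0.41 in wild type, beside -0.08 and -0.07 over all genes.

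HSFA1E had 10.3, 10.7 and 11.0 FPKM in exa1-1 at 39 °C, against 4.79, 3.58 and 4.09 FPKM at 23 °C. In wild type it had 14.3, 12.8 and 12.6 FPKM at 39 °C, against 4.53, 4.14 and 3.75 FPKM at 23 °C. The heated libraries lay above all controls. The log2 change was 2.36 ± 0.12 in exa1-1 (adjusted p = 1.54e-13) and 2.56 ± 0.12 in wild type (adjusted p = 3.81e-14), and 1.36 and 1.68 with total counts, both called.

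The other HSFA1 genes rose relative to the median gene and moved less on the FPKM scale. HSFA1A had a log2 change of 1.35 ± 0.08 in exa1-1 and 1.15 ± 0.07 in wild type, and 0.35 and 0.27 with total counts, all called. HSFA1B had 1.00 ± 0.09 in exa1-1 and 0.70 ± 0.08 in wild type, both called, but 0.01 in exa1-1 and -0.18 in wild type with total counts, neither called, so its direction in wild type turned with the scaling. HSFA1B shares 44 bases at its 3′ end with SYP21 (AT5G16830) on the other strand, whose log2 change at 39 °C was 1.76 ± 0.01 in exa1-1 and 1.62 ± 0.04 in wild type; no label or header states the strand setting of the counting, so reads of that stretch cannot be told apart. HSFA1D had 1.43 ± 0.11 in exa1-1 and 0.91 ± 0.08 in wild type, both called, and 0.43 (called) and 0.03 (not called) with total counts.

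HSFA4A behaved differently in the genotypes. It had 5.35, 6.62 and 7.21 FPKM in exa1-1 at 39 °C, against 5.83, 5.41 and 4.69 FPKM at 23 °C. In wild type it had 2.85, 3.91 and 3.59 FPKM at 39 °C, against 5.16, 6.26 and 6.09 FPKM at 23 °C. On this scale the exa1-1 groups overlapped, whereas all heated wild-type libraries lay below their controls. With TMM the log2 change was 1.26 ± 0.16 in exa1-1 (adjusted p = 1.26e-08) and 0.12 ± 0.13 in wild type (adjusted p = 0.407); with total counts it was 0.27 in exa1-1 (not called) and -0.76 in wild type (called lower), a reversal in wild type.

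HSFA8 went the other way. It had 1.93, 1.05 and 1.68 FPKM in exa1-1 at 39 °C, against 5.92, 5.24 and 5.13 FPKM at 23 °C. In wild type it had 3.38, 3.06 and 3.25 FPKM at 39 °C, against 5.49, 6.86 and 6.65 FPKM at 23 °C. The heated libraries lay below the controls in both genotypes, and those of exa1-1 below those of wild type. With TMM the log2 change was -0.81 ± 0.25 in exa1-1 (adjusted p = 0.000187) and -0.09 ± 0.11 in wild type (adjusted p = 0.563), and with total counts -1.81 and -0.98, both called lower.

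HSFA5 and HSFA4C did not pass the test at 39 °C with TMM and were called lower in both genotypes with total counts. HSFA5 had a log2 change of -0.15 ± 0.09 in exa1-1 and -0.14 ± 0.03 in wild type with TMM, and -1.15 and -1.02 with total counts. HSFA4C had -0.30 ± 0.07 in exa1-1 and -0.05 ± 0.25 in wild type with TMM, and -1.30 and -0.93 with total counts. In wild type 1 heated library, replicate 2, stood apart for HSFA4C, with 4.60 FPKM against 2.59 and 2.63 in the others, and without it the TMM value was -0.34 and called. In exa1-1 the HSFA4C call was gained without that wild-type library, which shares the fit, or without replicate 1 of exa1-1 at 23 °C, and also with no filter on low counts (adjusted p = 0.0358) and with all 24 libraries in 1 fit (adjusted p = 0.0487). The HSFA5 call in exa1-1 was gained without replicate 2 of exa1-1 at 39 °C.

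The heat response differed between genotypes for 2 of 8 members by the interaction test, beside 8.04% of all genes. For HSFA4A the exa1-1 change exceeded that of wild type by 1.14 ± 0.21 (adjusted p = 0.000715), or by 1.03 with total counts (adjusted p = 0.00192), and it stayed called under all alternatives run (adjusted p 9.6e-07 to 0.0212). For HSFA1D the difference was 0.52 ± 0.14 (adjusted p = 0.022), but the call was lost with total counts (0.40, adjusted p = 0.0899), with limma on FPKM, and on leaving out wild type at 23 °C replicate 1 or 2, wild type at 39 °C replicate 3, exa1-1 at 23 °C replicate 1 or exa1-1 at 39 °C replicate 2 (adjusted p 0.00479 to 0.133 over all alternatives). For HSFA8 the difference of -0.72 ± 0.27 missed the threshold (adjusted p = 0.0534). It passed with DESeq2 (adjusted p = 0.0324), total counts (-0.83, adjusted p = 0.0282), no filter on low counts (adjusted p = 0.0377) and all 24 libraries in 1 fit (adjusted p = 0.016). It also passed without exa1-1 at 23 °C replicate 3 or exa1-1 at 39 °C replicate 1 (adjusted p 0.016 to 0.147 over all alternatives). The remaining 5 members had differences between -0.25 and 0.30.

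Set side by side at 39 °C, exa1-1 and wild type differed in 4 of 8 members, beside 24.4% of all genes (12.7% higher and 11.7% lower in exa1-1). HSFA4A was higher in exa1-1 by a log2 change of 0.94 ± 0.17 (adjusted p = 4.2e-05), HSFA1D by 0.65 ± 0.08 (adjusted p = 7.44e-05) and HSFA1A by 0.42 ± 0.09 (adjusted p = 0.00694), and HSFA8 was lower by -1.006 ± 0.25 (adjusted p = 0.000408). For these 4 genes the exa1-1 and wild-type libraries did not overlap at 39 °C, but neither did those of HSFA1E, which was not called. The share of all genes without overlap was not counted. Total counts gave the same calls for these 4 genes. HSFA1E had -0.26 ± 0.09, which missed the threshold (adjusted p = 0.0585). It passed with total counts (-0.31, adjusted p = 0.0251) and with the replicate number as a block (-0.26, adjusted p = 0.0488). It also passed with limma on log2(FPKM + 1) (adjusted p = 0.042), all 24 libraries in 1 fit (adjusted p = 0.0319), and without replicate 1 or 2 of exa1-1 at 23 °C (adjusted p 0.0251 to 0.242 over all alternatives).

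The genotypes were also set side by side in the other 3 conditions. On 1/2 MS 2 of 8 members were called, beside 18.3% of all genes (8.14% higher and 10.1% lower in exa1-1): HSFA1A was higher in exa1-1 (4.98, 6.12 and 5.91 FPKM, against 4.39, 3.71 and 4.67 FPKM in wild type; log2 change 0.41 ± 0.13, adjusted p = 0.0225) and HSFA8 was lower (7.08, 6.33 and 6.44 FPKM, against 8.56, 7.64 and 8.58 FPKM; -0.33 ± 0.07, adjusted p = 0.0181). The HSFA1A call was lost without wild type replicate 2 or exa1-1 replicate 2 or 3, and the HSFA8 call without wild type replicate 1 or 3 or exa1-1 replicate 2 or 3. With limma on log2(FPKM + 1) without a filter the HSFA1A call was also lost (adjusted p = 0.0519). At 23 °C 0 of 8 were called by edgeR, beside 19.4% of all genes (8.27% higher and 11.2% lower); HSFA8 had an unadjusted p under 0.05, DESeq2 called 0, and limma on FPKM called HSFA1A. In NaCl 1 of 8 was called, beside 29.5% (15.9% higher and 13.6% lower): HSFA4A was lower in exa1-1 by -0.26 ± 0.08 (adjusted p = 0.00627).

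Ratios within a library do not depend on how libraries are scaled, so the HSFA1 genes were also given as shares of their summed FPKM. The HSFA1E share was 35.6% ± 0.423 in exa1-1 in NaCl, against 13.5% ± 0.480 on 1/2 MS, and 35.2% ± 2.23 in wild type in NaCl, against 15.75% ± 0.698 on 1/2 MS (SD, n = 3 each). At 39 °C it was 29.7% ± 1.14 in exa1-1, against 16.5% ± 3.06 at 23 °C, and 40.2% ± 2.33 in wild type, against 17.35% ± 1.47 at 23 °C. The stressed and control libraries did not overlap in any of these comparisons, and each exact permutation test (two-sided) gave p = 0.1, the smallest that 3 against 3 libraries allow. Of 80 such tests of shares, sums and ratios, 53 reached it, which adjusts to 0.151 by Benjamini-Hochberg, so none can pass 0.05. The HSFA1D share was 28.9% in exa1-1 in NaCl against 40.3% on 1/2 MS, and 27.1% in wild type in NaCl against 43.2% on 1/2 MS.

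Between the genotypes, the shares of HSFA1E, HSFA1D and HSFA1A did not overlap at 39 °C, and those of HSFA1B did. The HSFA1A share averaged 17.5% in exa1-1 at 39 °C, against 14.8% in wild type. The HSFA1E share was 29.0%, 29.1% and 31.0% in exa1-1, against 42.8%, 38.5% and 39.2% in wild type, with no overlap (difference -10.5 ± 1.498 percentage points, SE; exact permutation p = 0.1). The HSFA1D share was 30.6%, 29.8% and 29.6% in exa1-1, against 19.1%, 24.4% and 21.7% in wild type, again with no overlap. At 23 °C the HSFA1E shares of the genotypes overlapped, at 14.0 to 19.9% in exa1-1 and 16.4 to 19.0% in wild type. The HSFA1D shares overlapped there as well. The other HSFA1 shares did not overlap at 23 °C. HSFA1A averaged 19.55% in exa1-1 against 17.05% in wild type, and HSFA1B 32.3% against 36.3%. On 1/2 MS the HSFA1E shares were 13.1%, 14.0% and 13.5% in exa1-1, against 16.25%, 16.0% and 14.95% in wild type, with no overlap (difference -2.23 ± 0.489 percentage points, exact permutation p = 0.1). The HSFA1A share differed more on 1/2 MS, averaging 22.55% in exa1-1 against 16.85% in wild type, with no overlap. HSFA1B and HSFA1D shares overlapped on 1/2 MS, and all HSFA1 shares overlapped in NaCl. The summed FPKM of the 4 genes was 36.0 ± 0.775 in exa1-1 at 39 °C against 25.3 ± 1.08 at 23 °C, and 32.9 ± 0.705 in wild type at 39 °C against 23.9 ± 1.33 at 23 °C; the rescaling by TMM factors, added after the values were seen, made these 61.2 against 21.6 and 54.1 against 21.3.

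**Figure D3:**
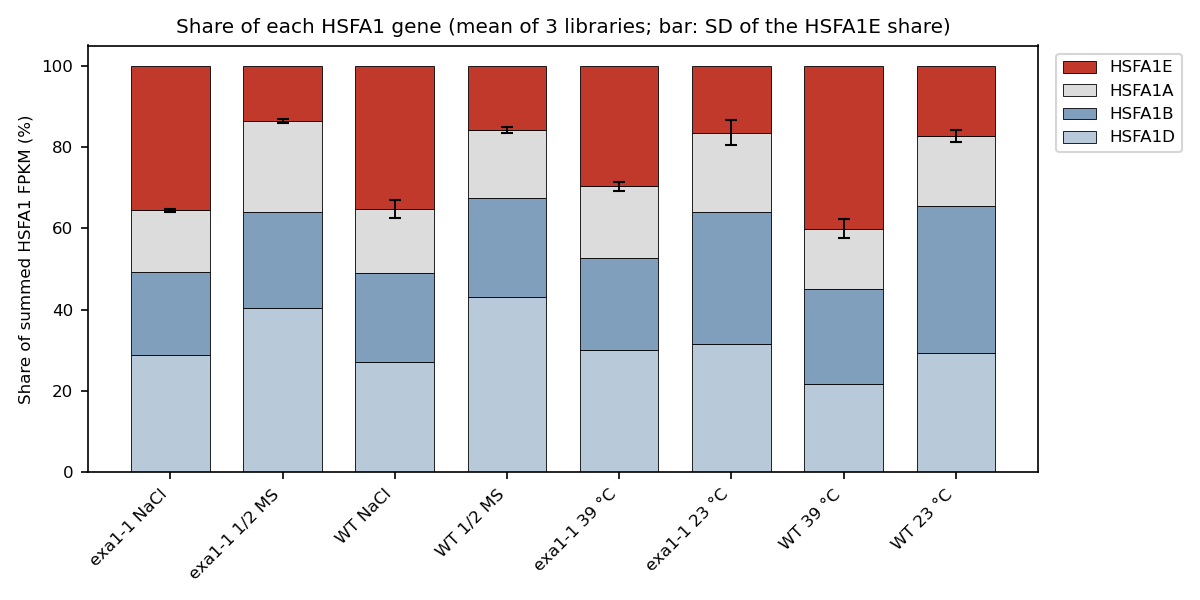
Share of each HSFA1 gene in the summed HSFA1 FPKM (y axis, percent; means of 3 libraries) in the 8 groups (x axis); bars are the SD of the HSFA1E share, drawn at its lower edge. The red HSFA1E segment is 29.7 to 40.2% under stress and 13.5 to 17.35% in the controls.

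HSFA5 can form complexes with HSFA4 proteins, so HSFA4A was set against HSFA5 within each library, a ratio chosen after the values were seen, as was the next. The log2 ratio of HSFA4A to HSFA5 FPKM was 0.85, 1.19 and 1.014 in exa1-1 in NaCl, against 0.01, -0.01 and 0.04 on 1/2 MS. In wild type it was 1.31, 1.25 and 1.30 in NaCl, against 0.15, -0.18 and -0.10 on 1/2 MS. HSFA4A thus stood above HSFA5 in every NaCl library and about level with it on 1/2 MS. At 39 °C the ratio was 0.15, 0.35 and 0.74 in exa1-1, against -0.80, -1.04 and -1.16 at 23 °C, and -0.82, -0.55 and -0.58 in wild type, against -1.012, -0.87 and -0.84 at 23 °C.

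The ratio of HSFA4A to HSFA8 separated the genotypes most at 39 °C, where HSFA4A was higher and HSFA8 lower in exa1-1. The ratio pairs these genes after that was seen, so its gap there is not a further result. It was 1.47, 2.65 and 2.099 on the log2 scale in exa1-1, against -0.24, 0.35 and 0.14 in wild type, a difference of 1.99 ± 0.38 (exact permutation p = 0.1). At 23 °C it was -0.02, 0.04 and -0.13 in exa1-1, against -0.09, -0.13 and -0.13 in wild type, and the libraries overlapped. On 1/2 MS it was 0.02, -0.08 and -0.02 in exa1-1, against -0.33, -0.20 and -0.49 in wild type, with no overlap and a difference of 0.32 ± 0.09 (exact permutation p = 0.1).

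**Figure D4:**
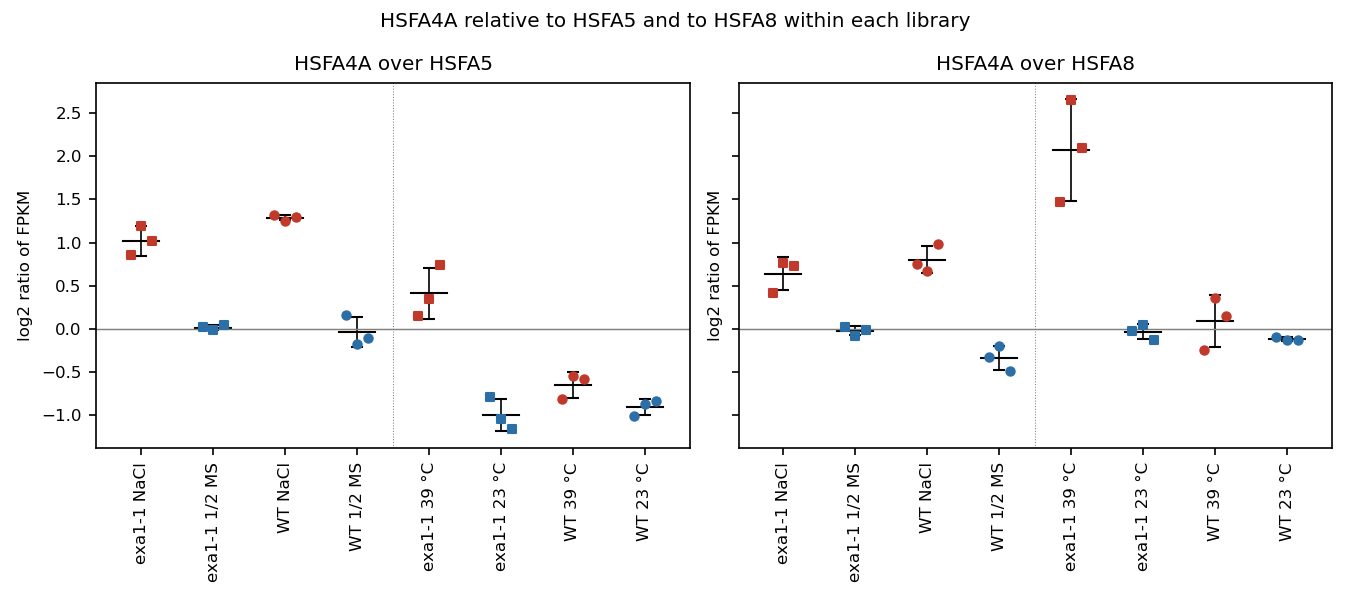
Log2 ratio of HSFA4A to HSFA5 FPKM (left) and to HSFA8 FPKM (right) in each library (y axis), by group (x axis); squares are exa1-1, circles wild type, red the stressed groups, lines and bars mean and SD of 3 libraries. In exa1-1 at 39 °C the mean ratios are 0.41 and 2.075, against -0.65 and 0.09 in wild type at 39 °C.

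The 2 stresses were compared through the difference of the heat and salt responses over all 24 libraries. In exa1-1 6 of 8 members differed, beside 74.2% of all genes, and in wild type 7 of 8, beside 73.3%. HSFA4A responded less to heat than to salt in wild type, by -1.62 ± 0.14 (adjusted p = 9.89e-11), while exa1-1 had -0.21 ± 0.19 (adjusted p = 0.184), or -1.08 and called with total counts. HSFA8 had -1.62 ± 0.26 in exa1-1 and -0.69 ± 0.15 in wild type, HSFA4C -1.05 ± 0.12 and -0.62 ± 0.28 in the same order, and HSFA5 -0.62 ± 0.12 and -0.54 ± 0.10, all called and more negative with total counts. For the HSFA1 genes the difference was positive with TMM and not always called, and total counts turned it negative for HSFA1B in both genotypes, HSFA1A in wild type and HSFA1E in exa1-1. In exa1-1 it was 1.26 ± 0.13 for HSFA1A, 0.53 ± 0.10 for HSFA1B and 1.23 ± 0.11 for HSFA1D, all called, and 0.29 ± 0.15 for HSFA1E (adjusted p = 0.0764). In wild type it was 0.66 ± 0.16 for HSFA1A, 0.98 ± 0.11 for HSFA1D and 0.80 ± 0.15 for HSFA1E, all called, and 0.25 ± 0.10 for HSFA1B (adjusted p = 0.0597); with total counts HSFA1D (0.24) and HSFA1E (0.05) lost the call.

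The control sets of the salt and heat series also differed for these genes, and they were treated as separate controls. With the 23 °C set over the 1/2 MS set, 5 of 8 were called in exa1-1, beside 65.6% of all genes, and 5 of 8 in wild type, beside 69.0%. HSFA5 was higher at 23 °C by 0.83 ± 0.08 in exa1-1 and 0.85 ± 0.09 in wild type, and HSFA1B by 0.57 ± 0.08 and 0.65 ± 0.07 in the same order. HSFA1D was lower by -0.23 ± 0.11 in exa1-1 and -0.49 ± 0.07 in wild type; the exa1-1 call was lost without replicate 2 or 3 on 1/2 MS or replicate 1 at 23 °C of exa1-1 (-0.29 to -0.13 over all libraries left out). The genotypes differed in this contrast for 0 of 8 members, beside 3.5% of all genes; 0 had an unadjusted p under 0.05, and DESeq2 and limma on FPKM also called 0.

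Genes around these factors were counted in lists from general knowledge of the pathway, chosen with earlier results of these data known. Of 22 heat genes placed downstream of HSFA1, all 22 rose at 39 °C in exa1-1 (median log2 change 10.35) and in wild type (9.97), beside medians of -0.08 and -0.07 over all genes tested. Over all genes tested, 38.4% were higher in each genotype, and 80.2% in exa1-1 and 80.1% in wild type were called in either direction. All 22 also passed as higher with total counts (medians 9.36 and 9.09), beside 89.1% and 87.0% of all genes called in either direction. MBF1C, a co-activator of the heat response, had 3142 CPM (counts scaled to a common library size) in exa1-1 at 39 °C, against 6.17 CPM at 23 °C, and 2673 CPM in wild type at 39 °C, against 7.00 CPM at 23 °C. HSFA2, the factor that prolongs the heat response, had 6696 CPM in exa1-1 at 39 °C, against 0.429 CPM at 23 °C, and 5907 CPM in wild type at 39 °C, against 0.886 CPM at 23 °C. In NaCl 19 of the 22 rose and 2 fell in exa1-1, and 17 rose and 4 fell in wild type (medians 1.32 and 1.22, beside -0.01 over all genes in each). Of all genes in NaCl, 35.7% in exa1-1 and 35.3% in wild type were higher, and 71.9% and 70.9% were called in either direction. DREB2A, a factor of drought and heat responses, rose by 4.14 ± 0.13 in exa1-1 and 4.25 ± 0.09 in wild type.

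The downstream genes also differed between the genotypes. On 1/2 MS 10 of 22 were lower in exa1-1 and 0 higher (median -0.36, beside 0.00 over all genes, of which 10.1% were lower), with HSFA2 at 9.49 CPM in exa1-1 against 19.8 CPM in wild type. At 39 °C 14 of 22 were higher in exa1-1 and 0 lower (median 0.24, beside 0.01 over all genes, of which 12.7% were higher), with HSFA7A, another inducible factor, at 463 CPM in exa1-1 against 294 CPM in wild type. In NaCl 7 were higher and 6 lower (median 0.07, beside 0.02, with 15.9% of all genes higher and 13.6% lower). At 23 °C 3 were higher and 5 lower (median -0.09, beside 0.00, with 8.27% higher and 11.2% lower).

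Of 12 genes whose products bind or modify HSFA1 proteins, or their close paralogs, 9 rose and 2 fell at 39 °C in exa1-1, and 9 rose and 3 fell in wild type (medians 1.27 and 1.52, beside -0.08 and -0.07 over all genes). With total counts 7 rose and 4 fell in exa1-1, and 8 rose and 4 fell in wild type (medians 0.27 and 0.64). With TMM the share called in either direction over all genes was 80.2% in exa1-1 and 80.1% in wild type. In each genotype 38.4% were higher. With total counts 89.1% of all genes in exa1-1 and 87.0% in wild type were called. Of 20972 genes tested, 2588 in exa1-1 and 3049 in wild type were then higher. HSC70-3, a cytosolic HSP70, rose by 7.07 ± 0.08 in exa1-1 and 6.91 ± 0.03 in wild type, and HSP90.2 by 5.89 ± 0.06 and 5.91 ± 0.05 in the same order. In NaCl 4 rose and 6 fell in exa1-1, and 2 rose and 7 fell in wild type (medians -0.08 and -0.23, beside -0.01 over all genes in each, of which 71.9% and 70.9% were called in either direction). HSP90.2 had -0.55 ± 0.02 in wild type. The HSC70 and HSP90 genes are close paralogs, and the counting could split their reads.

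Of 10 genes tied to HSFA4A in oxidative and salt stress, 7 rose and 2 fell in NaCl in exa1-1, and 6 rose and 2 fell in wild type (medians 1.19 and 0.90, beside -0.01 over all genes in each, of which 35.7% and 35.3% were higher). ZAT12, a zinc finger factor of oxidative stress, rose by 2.70 ± 0.30 in exa1-1 and 2.86 ± 0.05 in wild type, and ZAT6 by 1.91 ± 0.05 and 1.54 ± 0.11 in the same order. At 39 °C 3 of the 9 tested were higher in exa1-1 than in wild type and 0 lower, beside 12.7% of all genes higher, with ZAT12 at 51.9 CPM in exa1-1 against 31.4 CPM in wild type. In the other conditions 0 were higher in exa1-1: in NaCl 3 of 10 were lower (MPK3, WRKY30 and ZAT12), on 1/2 MS 2 of 10 (ZAT6 and HSP17.6A) and at 23 °C 1 of 9 (ZAT12), beside 13.6%, 10.1% and 11.2% of all genes lower.

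Of the 13 other heat shock factor genes 11 were tested, and in NaCl 9 rose and 1 fell in exa1-1, and 10 rose and 1 fell in wild type (medians 1.40 and 1.08, beside -0.01 over all genes in each, of which 35.7% and 35.3% were higher). HSFA6B had 167 CPM in exa1-1 in NaCl against 0.958 CPM on 1/2 MS, and 155 CPM in wild type in NaCl against 1.22 CPM on 1/2 MS. At 39 °C 8 rose and 2 fell in exa1-1, and 9 rose and 1 fell in wild type (medians 4.36 and 4.12, beside -0.08 and -0.07 over all genes, of which 38.4% were higher in each). With total counts 8 rose and 3 fell in each genotype (medians 3.37 and 3.24). Of 20972 genes tested, 2588 in exa1-1 and 3049 in wild type were higher with total counts, and 16089 and 15202 were lower.

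The genes with the most similar profile were found among 21899 genes by the root mean square difference of centred log2 CPM (TMM) over the 8 group means, for the 6 members whose group means spanned at least 1 log2 unit. For HSFA1E these were AT1G67920 (0.0775), NAC069 (0.137) and AT5G57040 (0.139), and for HSFA4A they were AT4G25670 (0.225), DHAR1 (0.255), a dehydroascorbate reductase, and HAM4 (0.257). For HSFA1D the nearest was RAPTOR2 (0.0777), for HSFA8 PAPP2C (0.134), for HSFA1A AT2G46915 (0.0888) and for HSFA1B AT3G60260 (0.0718). The gene nearest to HSFA4A lay farther from it than the nearest gene of each HSFA1 member.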

How the data were processed

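Gene counts were deposited by the authors as whole numbers with no normalization, for 24 libraries. FPKM values were also deposited by the authors, and in the 27815 genes checked each value was the count divided by gene length and library total, so FPKM holds no further scaling. Per the submitters' processing notes, HISAT2 2.0.4 and HTSeq 0.6.1p1 were used on TAIR10; no label or header names the strand setting, annotation release or filters.

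Tests used edgeR 4.0.16 (R 4.3.3): TMM, the default expression filter, a quasi-likelihood F test (two-sided) and Benjamini-Hochberg adjustment over all genes tested, called at 0.05. There were 3 fits of 12 libraries (salt series, heat series, control sets) and a fit of 24 for the heat against salt contrast. Log2 changes are edgeR's, CPM uses TMM-scaled library sizes, and SE comes from the libraries' log2 CPM (prior count 2). Alternatives were DESeq2 1.42.0, total counts only, no filter, 24 libraries in 1 fit, a replicate block, leaving out each library, and limma 3.58.1 on log2(FPKM + 1) or log2(FPKM + 0.1). The procedure was tested on simulated data. In the heat fit it recovered fewer of the known changes of 1 log2 unit than the limit first set, which was then lowered. Changes of that size or smaller can thus be missed there. Replicate pairs differed by 1.6 to 10.3 in chi-square per gene (24 pairs), so none was taken as a repeat deposit.

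The members, the gene lists and the contrasts were chosen with earlier results of these data known. Named list genes had the smallest adjusted p in their list and contrast. The labels' batch field held 1 value for all samples, so no batch could be tested. Within-library shares were planned, whereas their leave-one-out values, the ratios and the rescaled sums were chosen after seeing the data. Promoters were read from TAIR10.1; no protein sequences were used here. No label names molecular identifiers, so depth limits cover counting error only.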

Additional observations from a re-analysis of the deposited data

Results flagged for a closer look

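Results are given here where the response to stress differed between exa1-1 and wild type by the interaction test (edgeR, adjusted over all genes), as exa1-1 minus wild type on the log2 scale. At 39 °C against 23 °C the members were HSFA4A (1.14, adjusted p = 0.000715) and HSFA1D (0.52, adjusted p = 0.022), and the HSFA1D call was lost under several alternatives.

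Listed genes are named by the smallest adjusted p in their list and contrast, and some genes stand in more than 1 list. The response to 39 °C differed for 9 of 22 genes downstream of HSFA1 in the positive direction and 1 in the negative. It differed for 3 and 0 of 11 other heat shock factors and 1 and 0 of 9 genes tied to HSFA4A. Of 12 genes whose products bind or modify HSFA1, or their close paralogs, it differed for 0. Over all genes the share was 8.04% in either direction. With total counts these became 6 and 1, 2 and 2, 1 and 0, and 0 and 2. Over all 20972 genes tested, total counts gave 403 in the positive direction and 1563 in the negative. The named genes are ZAT12 (1.41 ± 0.19, adjusted p = 0.00015) and HSFA7A (0.90 ± 0.13, adjusted p = 0.000102). The response to NaCl differed for 9 and 0 of 22 downstream genes, and 6 and 0 of 12 that bind or modify HSFA1, or their close paralogs. It differed for 2 and 0 of 10 tied to HSFA4A, and 2 and 1 of 11 other heat shock factors, beside 11.2% of all genes. Among those other factors HSFC1 had -0.53 ± 0.15 (adjusted p = 0.00794). The named genes are HSC70-2 (0.71 ± 0.07, adjusted p = 2.7e-06), HSC70-4 (0.70 ± 0.06, adjusted p = 5.95e-07), HSFA2 (0.60 ± 0.12, adjusted p = 0.00124) and ZAT6 (0.38 ± 0.12, adjusted p = 0.0211). HSFA2 stood at 29.7 CPM in exa1-1 in NaCl, against 9.49 CPM on 1/2 MS, and at 41.2 CPM in wild type in NaCl, against 19.8 CPM on 1/2 MS. HSC70-2 has a near-identical neighbour, HSC70-1, and the counting could split their reads, so its value is uncertain.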

How the results depend on the processing

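Of 2576 values of the members' log2 changes under the alternatives, 2348 kept their direction and call, 78 lost the call, 61 gained it, 65 uncalled values changed sign and 24 reversed. All reversals came from total-count scaling or the FPKM fits. At 39 °C in wild type, HSFA1B became -0.18 with total counts and -0.16, -0.17 and -0.16 with limma on log2(FPKM + 1), log2(FPKM + 0.1) and log2(FPKM + 1) without a filter, and HSFA4A became -0.76, -0.62, -0.75 and -0.62 in the same order. In the heat against salt contrast of wild type, HSFA1A became -0.0874, -0.0776, -0.0891 and -0.0776 and HSFA1B -0.50, -0.43, -0.49 and -0.43; in exa1-1, HSFA1B became -0.33, -0.29, -0.33 and -0.29 and HSFA1E -0.57, -0.49, -0.56 and -0.49. Members called became 1 in the heat interaction with limma under each setting, 1 on 1/2 MS between genotypes with limma without a filter, and 1 at 23 °C with limma on log2(FPKM + 1), filtered or not. Genes called in the heat interaction became 2557 with 24 libraries in 1 fit, and in the interaction of the control sets 435 with limma without a filter; the cause was not tested. Leaving out 1 library gave 0 to 2 members on 1/2 MS, 1 to 3 in the heat interaction, 3 to 5 in each control contrast, and 965 to 1596 genes in the heat interaction, 2482 to 4285 at 23 °C and 281 to 919 in the interaction of the control sets. Without wild type at 23 °C replicate 1 or 3 or exa1-1 at 39 °C replicate 3, the heat interaction had 1092, 965 and 1043 genes, and without wild type at 23 °C replicate 1 or 3 the 23 °C comparison had 2482 and 2525. The control contrasts had 3 members without wild type on 1/2 MS replicate 1 or 3, wild type at 23 °C replicate 3 (wild type) or exa1-1 at 23 °C replicate 1 (exa1-1). Total counts made the higher share of all calls 13.9% in exa1-1 and 16.7% in wild type for the heat responses, against 47.8% and 48.0% with TMM, 20.5% against 54.2% in the heat interaction, 63.4% against 42.6% between genotypes at 23 °C, 37.5% against 51.9% at 39 °C, 38.0% against 48.8% between wild-type control sets, 74.7% against 58.7% in their interaction, 17.9% against 48.5% (exa1-1) and 20.8% against 47.6% (wild type) for heat against salt, and 39.7% against 49.7% for salt in exa1-1. With the replicate number as a block, HSFA1E at 39 °C between genotypes gained a call (-0.26, adjusted p = 0.0488). HSFA8 between wild-type control sets lost its call (-0.23, adjusted p = 0.0621), and no other member's call changed. Among 18 same-numbered pairs in each series, correlations ran from -0.0464 to 0.0924 (salt) and from -0.0326 to 0.0709 (heat). The highest correlation of each series was of a same-numbered pair. These values cannot tell whether the numbers pair the samples.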
